A study of Nicotiana tabacum with 9 samples.

Results

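The strongest sites bound by both AmMIXTA and NtZFP8 were taken from tobacco DNA affinity purification sequencing (DAP-seq), in which a tagged factor, produced without living cells and fixed to beads, retains fragments of genomic DNA that are then sequenced. A shared strong site was an AmMIXTA peak on a nuclear scaffold (a sequence named NW_) with a peak shape score above 10 that overlapped, by at least 1 bp, an NtZFP8 peak with a score above 10. Members were thus chosen by both scores and by the overlap. This gave 560 sites out of 29197 listed AmMIXTA peaks. They lay on 477 scaffolds and paired with 564 of the 20957 listed NtZFP8 peaks, since 4 AmMIXTA peaks each overlapped 2 strong NtZFP8 peaks. For those 4, the NtZFP8 peak with the nearer centre was used.

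The study set out to find DNA bound by both factors in the early steps of glandular trichome formation. Its 9 samples comprised HALO-tagged AmMIXTA (n = 3), HALO-tagged NtZFP8 (n = 3) and, as negative control, HALO-tagged nuclear-targeted GFP (nlsGFP, n = 3). All were incubated with 1000 ng of DNA from leaf primordia of wild-type Nicotiana tabacum Petit Havana SR1, for 1 h at 25 °C. Each protein was made 3 times in wheat germ extract and met purified, sonicated DNA, so tobacco chromatin and tobacco cells had no place in the binding, and AmMIXTA is a snapdragon protein tested on tobacco DNA.

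AmMIXTA belongs to the R2R3-MYB family, whose members bind DNA through paired MYB repeats, and in snapdragon it shapes the conical cells of the petal epidermis. NtZFP8 is a C2H2 zinc finger protein, of a class in which a zinc ion held by cysteines and histidines folds a DNA-reading finger. In Arabidopsis, related C2H2 factors take part in trichome initiation. The families have unrelated DNA-binding domains.

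The peak shape score is the authors' own value for each peak called against nlsGFP. It has no unit and ranks peaks within a list. There is 1 value per peak and protein and none per replicate, so no spread between replicates stands behind any value here and no difference between the proteins was tested. Read depth is unknown. Both lists were called against the same nlsGFP libraries, and the part of those libraries in the sharing was not tested. Intervals are 95% Wilson intervals. They cover counting error only, and neighbouring sites are not independent.

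The authors' criterion of a score above 2 was passed by 70.3% of AmMIXTA peaks and 72.5% of NtZFP8 peaks on nuclear scaffolds. A score above 10 was reached by 916 of 29189 AmMIXTA peaks on nuclear scaffolds (3.14%) and by 877 of 20715 NtZFP8 peaks (4.23%). The shared strong sites made up 61.1% of those AmMIXTA peaks (57.9 to 64.2) and 64.3% of those NtZFP8 peaks (61.1 to 67.4). These 2 shares require a partner above 10. With a partner at any listed score, 898 of the 916 AmMIXTA peaks above 10 overlapped a listed NtZFP8 peak. Of the 877 NtZFP8 peaks above 10, 4.45% overlapped no listed AmMIXTA peak. Over all nuclear peaks, again with a partner at any listed score, 46.6% of AmMIXTA peaks overlapped a listed NtZFP8 peak and 65.9% of NtZFP8 peaks overlapped a listed AmMIXTA peak. The scores and the overlap chose the sites, so these shares are a description. Most strong peaks that missed the rule had a partner at a lower score. Of the AmMIXTA peaks above 10, 265 had their best NtZFP8 partner between 5 and 10, 72 between 2 and 5 and 1 at 2, and 18 overlapped no listed NtZFP8 peak. Of the NtZFP8 peaks above 10, 251 had their best AmMIXTA partner between 5 and 10, 22 between 2 and 5 and 1 below 2, and 39 overlapped no listed AmMIXTA peak.

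**Figure D1:**
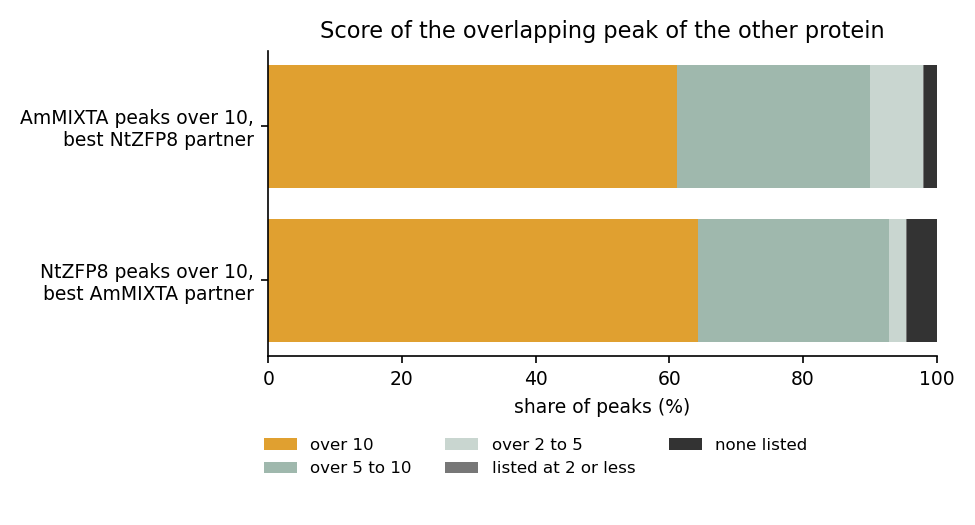
Share of peaks above 10 on nuclear scaffolds (x axis, percent) by the score of their best overlapping peak of the other protein, for AmMIXTA (upper bar, 916 peaks) and NtZFP8 (lower bar, 877 peaks). Shared strong sites fill 61.1% of the upper bar and 64.3% of the lower bar, and peaks with no listed partner take the dark ends (18 and 39 peaks).

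The top of the NtZFP8 list lay almost wholly at these sites. They held each of the 20 and each of the 50 highest nuclear NtZFP8 peaks, and 98 of the 100 highest. On the AmMIXTA side they held 17 of the 20, 43 of the 50 and 86 of the 100 highest. The 3 AmMIXTA peaks of the first 20 that missed the rule scored 25.0 (34266 to 34652 of NW_015840320.1), 23.4 (109312 to 109686 of NW_015819268.1) and 23.2 (6255 to 6606 of NW_015794114.1). Their best NtZFP8 partners scored 4.31, 7.86 and 8.33.

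At the 560 sites the median score was 13.9 for AmMIXTA (quartiles 11.9 and 16.6, highest 27.4) and 13.3 for NtZFP8 (11.5 and 15.6, highest 25.5). Both scores exceeded 15 at 112 sites and 20 at 9 sites. The lists were called separately and a common scale for their scores was not tested, so a larger number does not show stronger binding by that protein. YLS3-like, for example, had an AmMIXTA score of 16.3 and an NtZFP8 score of 16.1, but ranked 172 among AmMIXTA peaks and 119 among NtZFP8 peaks. The AmMIXTA score was the larger number of the pair at 325 sites and the NtZFP8 score at 235. The 2 scores lay within 1 of each other at 170 sites and over 5 apart at 67, of which 49 had the larger number for AmMIXTA and 18 for NtZFP8. Across the sites the scores had a Pearson correlation of 0.505 and a Spearman correlation of 0.43 (n = 560 sites, which share the nlsGFP libraries and were limited to scores above 10 on both axes).

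**Figure D2:**
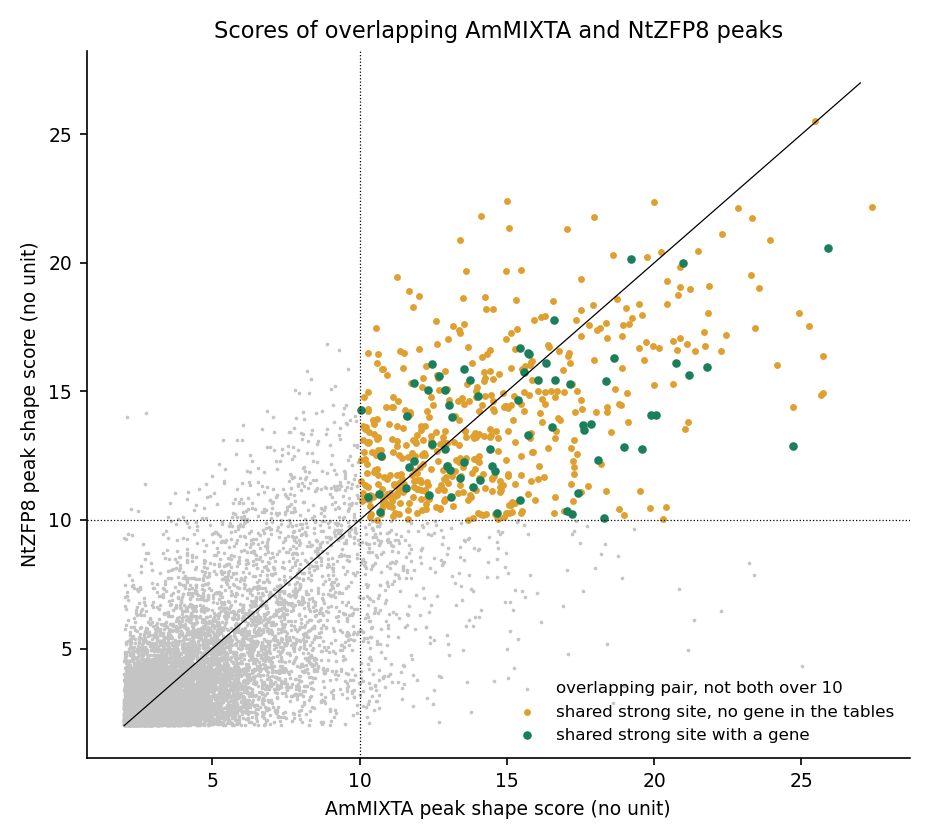
AmMIXTA score (x axis) against NtZFP8 score (y axis), neither with a unit, for overlapping peaks past 2 in both lists; dotted lines mark 10 and the solid line equal scores. The 67 sites with a gene in the authors' tables (green) are spread among the 493 without one (orange), and 325 of the 560 sites lie below the line of equal scores, where the AmMIXTA number is the larger.

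The highest sites by the lower of their 2 scores had no gene in the authors' gene tables. First came 964 to 1304 of NW_015931517.1 for AmMIXTA (score 25.5) and 1032 to 1316 for NtZFP8 (25.5), the highest peak of the whole NtZFP8 list and the sixth of AmMIXTA. Its centres lay 12 bp apart. Next was 131848 to 132257 of NW_015929757.1, the highest AmMIXTA peak of all at 27.4, with an NtZFP8 peak of 22.2 at 131985 to 132273. The third lay at 125 to 631 of NW_015888610.1 for AmMIXTA (22.8) and 354 to 660 for NtZFP8 (22.1). The fourth, at 34411 to 34758 of NW_015836367.1, had 23.3 for AmMIXTA and 21.7 for NtZFP8 (34488 to 34765). The fifth, at 55603 to 56110 of NW_015915346.1, had 22.3 for AmMIXTA and 21.1 for NtZFP8 (55808 to 56102). In each of these 5 the centres of the proteins were 41 bp apart or less.

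The listed scores of a pair could differ widely. The largest difference of the AmMIXTA score over the NtZFP8 score lay at the gene for the DnaJ protein GRV2-like (LOC107782199), whose Arabidopsis counterpart acts in endosome formation, with 24.7 for AmMIXTA and 12.9 for NtZFP8. The next such sites, at 122464 to 122835 of NW_015833582.1 (25.7 and 14.85) and 43982 to 44341 of NW_015930849.1 (25.7 and 14.9), had no gene in the authors' tables. At the other end stood 121163 to 121512 of NW_015852103.1, with 11.3 for AmMIXTA and 19.4 for NtZFP8. It was followed by 63034 to 63506 of NW_015923038.1 (14.1 and 21.8) and 1496 to 1761 of NW_015923408.1 (13.4 and 20.9). None of these sites had a gene in the authors' gene tables. A separate unlabelled list, described below, placed the first and the last of them in the class Gene at distance 0. Just inside the threshold were sites with AmMIXTA scores of 13.7, 10.6 and 14.7 and NtZFP8 scores of 10.01, 10.01 and 10.02. Just outside were AmMIXTA peaks of 15.4, 11.7 and 11.6, over NtZFP8 peaks listed at 10, 10 and 9.99.

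The deposited centres of the 2 proteins' peaks lay close together at most sites, a median of 17 bp apart (quartiles 9 and 28). With the middles of the regions in place of the deposited centres the median was 63.8 bp, an alternative chosen after seeing the data. Deposited centres were within 25 bp at 71.6% of sites (67.7 to 75.2) and within 50 bp at 85.9% (82.8 to 88.5). The median overlap was 277.5 bp, against median region widths of 385 bp for AmMIXTA and 294.5 bp for NtZFP8. Distances were much the same in pairs outside the rule, with a median of 18 bp (n = 617) where 1 protein was above 10. The median was 16 bp (n = 8908) where both scores were past 2 and neither was above 10. Both of these sets keep every overlapping pair, whereas the sites keep only the partner with the nearer centre. Widths of all listed nuclear peaks were also close to those of the sites, at 387 bp for AmMIXTA and 287 bp for NtZFP8. No test was run over regions.

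Long distances were not even on the 2 sides. The NtZFP8 centre lay over 100 bp further along the scaffold than the AmMIXTA centre at 49 sites (8.75%, 6.68 to 11.4), with 25 of the 560 sites between 200 and 300 bp. It lay over 100 bp before the AmMIXTA centre at 0 of 560 sites, which allows a share of up to 0.536% when 3 counts are taken as the limit of a count of 0 (Wilson upper limit 0.681%). Offsets ran from -66 to 378 bp. The same lean of the long offsets was present outside the rule. There, 511 of 8908 pairs with both scores past 2 and neither above 10 had the NtZFP8 centre over 100 bp further along. In 37 it lay over 100 bp before. Over all distances the NtZFP8 centre more often lay before the AmMIXTA centre. It did so at 308 of the 560 sites (55.0%, median offset -3 bp) and at 5968 of the 8908 pairs (67.0%, median -9 bp). The direction is that of scaffold coordinates, not of genes.

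**Figure D3:**
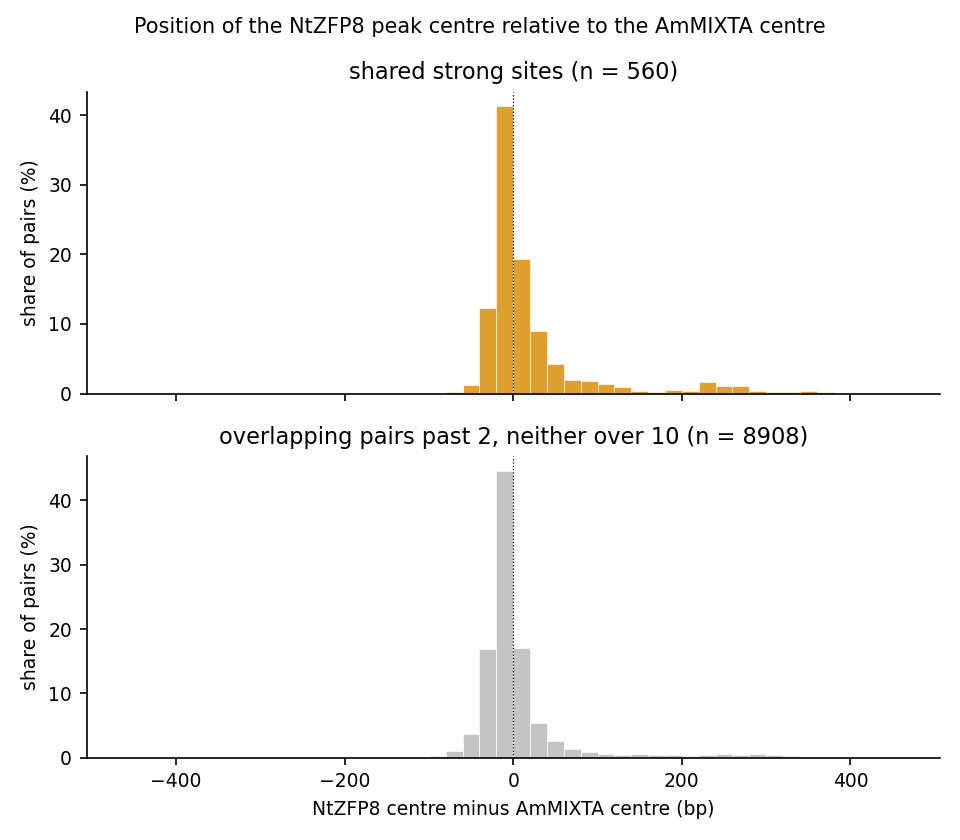
NtZFP8 centre minus AmMIXTA centre in bp (x axis, bins of 20 bp) as a share of pairs (y axis, percent), for the 560 shared strong sites (upper panel) and for 8908 overlapping pairs past 2 with neither score above 10 (lower panel). In both panels the long tail lies to the right of 0, and in the upper panel it holds 49 sites beyond 100 bp while the lowest offset is -66 bp.

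The regions themselves were placed unevenly too. Over the 546 sites whose regions lay wholly within their scaffold, the AmMIXTA centre stood a median of 63.2% of the way along its region, and the NtZFP8 centre 46.3%. Over all listed nuclear peaks of that kind the medians were 61.1% for AmMIXTA and 47.0% for NtZFP8. The NtZFP8 region began a median of 106 bp after the AmMIXTA region and ended a median of 12 bp after it. At the 49 sites with the long offset the AmMIXTA centre stood at 43.9% of its region and the NtZFP8 centre at 59.2%. Median scores at those sites were 14.7 for AmMIXTA and 12.1 for NtZFP8. The source of the lean of the long offsets was not tested.

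At 22 sites less than 50% of a region was covered by the other protein's peak, and 4 of these had a gene in the authors' tables. The widest gap between centres of all 560 sites was at transcription repressor MYB6-like (LOC107803458), a gene of the R2R3-MYB family to which AmMIXTA itself belongs. Its AmMIXTA peak (36809 to 37219 of NW_015937367.1, score 18.1) and NtZFP8 peak (37207 to 37500, score 12.35) shared 13 bp, and their centres were 378 bp apart. A site on NW_015916760.1, without a gene in the authors' tables, had centres 358 bp apart and scores of 13.7 for AmMIXTA and 10.8 for NtZFP8. The third was the first of the sites at la-related protein 1A-like (LOC107770309), with 344 bp between centres and 14 bp shared.

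Other listed peaks stood near many of the sites. Another AmMIXTA peak had its centre within 1000 bp of 36.6% of sites (32.7 to 40.7), against 28.1% of AmMIXTA peaks above 10 without a strong partner (23.7 to 33.0) and 16.7% of all nuclear AmMIXTA peaks (16.3 to 17.2). Within 500 bp the shares were 6.96% at the shared strong sites and 7.02% at AmMIXTA peaks above 10 without a strong partner, so the gap between these did not hold at the shorter distance. Over all nuclear AmMIXTA peaks the share within 500 bp was 3.89%. Next AmMIXTA centres on a scaffold were never closer than 358 bp, which leaves little room for a neighbour within 500 bp. Within 5000 bp the shares were 52.1% at the sites, 42.1% at AmMIXTA peaks above 10 without a strong partner and 32.4% over all. For NtZFP8 the share within 1000 bp was 43.1% at the shared strong sites (39.1 to 47.2), 51.8% at NtZFP8 peaks above 10 without a strong partner (46.2 to 57.2) and 28.6% over all (28.0 to 29.2). Within 5000 bp these NtZFP8 shares were 53.9%, 65.5% and 43.7%. At 314 sites neither peak of the pair had a further listed peak of its own protein within 1000 bp.

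On 55 scaffolds there was more than 1 site, and these held 138 sites. NW_015916166.1 held 7 within 19125 bp, with AmMIXTA scores between 10.3 and 15.3 and NtZFP8 scores between 10.25 and 17.4, out of 22 AmMIXTA and 24 NtZFP8 peaks listed there. NW_015907147.1 held 5 within 21016 bp, led by 58985 to 59486 with 20.4 for AmMIXTA and 19.3 for NtZFP8. NW_015913187.1 and NW_015839771.1 held 4 each. None of these 20 sites had a gene in the authors' tables. Next sites on a scaffold lay a median of 1018 bp apart (quartiles 687 and 2421, lowest 439, n = 83), against 1509 bp for next AmMIXTA peaks in general.

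Of the 560 sites, 30 (5.36%, 3.78 to 7.54) began within 500 bp of position 1 of their scaffold, against 18.2% of all nuclear AmMIXTA peaks (17.8 to 18.7). Their scaffolds reached a median of 30523 bp per site, against 10280 bp per AmMIXTA peak, taking the furthest listed peak end as the known length. The part of scaffold length in the difference was not tested. Nor was its part in the shares of sites with a further peak nearby or with a gene.

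The authors' gene tables assigned 67 of the 560 sites (11.96%, 9.53 to 14.9) to 62 genes, 48 of them described. Over all nuclear peaks the shares assigned were 6.19% for AmMIXTA and 5.77% for NtZFP8. Among peaks above 10 without a strong partner they were 8.15% for AmMIXTA (5.73 to 11.5) and 5.43% for NtZFP8 (3.42 to 8.52). At 65 sites both tables named a gene. The genes of the other 2 sites, for a subunit of replication protein A and for a phosphoribosylamine-glycine ligase, stood in the AmMIXTA table but not in the NtZFP8 table. Each table held 1 peak for 46 of the genes, and at 56 of them the highest AmMIXTA and highest NtZFP8 peak of the gene formed 1 site. The rule by which peaks were assigned to genes, and whether a peak lay in an exon, an intron or a promoter, are not given in these tables.

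Sites with a gene in the authors' tables had a median AmMIXTA score of 15.4 and NtZFP8 score of 13.7. Sites without one had 13.9 for AmMIXTA and 13.3 for NtZFP8. The centres were 16 bp apart at sites with a gene and 17 bp at the others. Of the genes, 53 of 62 have an identifier in the RefSeq table of another tobacco assembly (ASM71507v2), where 51 are protein-coding, 1 is a pseudogene and 1 a miscellaneous RNA.

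Membrane traffic and the cytoskeleton gave the highest described gene. With the words as first fixed the group held 5 of 62 genes in the AmMIXTA table (8.06%), against 35 of 1195 genes past a score of 2 (2.93%). In the NtZFP8 table the same words held 5 of 60 genes (8.33%), against 28 of 754 (3.71%). After the values were seen, exocyst and spastin were added, accidental matches such as formin in UDP-forming were removed, and LOC107799906 dropped out. The group then held 6 of 62 (9.68%), against 24 of 1195 (2.01%), and 6 of 60 in the NtZFP8 table, against 19 of 754 (2.52%). Words changed on the data widened the gap, so these shares are no evidence of a preference. RABB1c-like (LOC107813663), a small GTPase of vesicle traffic, scored 25.9 for AmMIXTA (103928 to 104319 of NW_015806601.1) and 20.6 for NtZFP8 (104038 to 104353). It ranked second in the AmMIXTA list and fourteenth in that of NtZFP8. Kinesin-13A-like (LOC107815762) is a microtubule motor whose Arabidopsis counterpart limits the branching of leaf trichomes. It shared a site with the undescribed LOC107815761, at 17009 to 17462 of NW_015811843.1 for AmMIXTA (16.1) and 17180 to 17481 for NtZFP8 (15.5).

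Microtubule genes appeared as well. Tubulin-folding cofactor D-like (LOC107787597), which helps to assemble tubulin dimers, had 17.4 for AmMIXTA and 11.04 for NtZFP8 with centres 3 bp apart. Spastin-like (LOC107766094), of a family known in animals for severing microtubules, had 12.3 for AmMIXTA and 15.05 for NtZFP8. The exocyst subunit SEC8-like (LOC107791768), which tethers secretory vesicles to the plasma membrane, had 14.5 for AmMIXTA and 12.1 for NtZFP8. GRV2-like, matched through the word DnaJ, completed the group.

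With a gene added on the data, regulators of transcription stood near their share among all genes. The fixed words found MYB6-like alone, 1 of 62 genes (1.61%), against 37 of 1195 (3.10%). Calmodulin-binding transcription activator 4-like (LOC107810996), a calcium-responsive factor, was added after its values were seen. It had 13.04 for AmMIXTA (144666 to 145019 of NW_015951196.1) and 14.5 for NtZFP8 (144749 to 145044), with centres 17 bp apart. These are 2 of the 62 genes (3.23%), against 39 of 1195 genes past 2 in the AmMIXTA table (3.26%). In the NtZFP8 table they were 2 of 60 (3.33%), against 22 of 754 (2.92%). No gene whose description names trichomes, GLABRA, protoderm, the epidermis, MIXTA or B-type cyclins was among the 62, where 8 of 1195 genes past 2 in the AmMIXTA table (0.669%) and 5 of 754 in the NtZFP8 table (0.663%) have such descriptions. No description held a lipid or cuticle word either, against 20 of 1195 (1.67%). Genes of that kind described in other words would be missed. Hormone words matched 1 gene, through the letters of ethylene in methylenetetrahydrofolate reductase, and none once that match was removed.

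Signalling genes numbered 5 of 62 (8.06%), against 74 of 1195 past 2 in the AmMIXTA table (6.19%). Calcineurin B-like protein 3 (LOC107819027), a calcium sensor that works through partner kinases, had 21.2 for AmMIXTA (5930 to 6247 of NW_015820924.1) and 15.6 for NtZFP8 (5990 to 6256), with centres 2 bp apart. EDR1-like (LOC107799674), a protein kinase whose Arabidopsis counterpart restrains disease resistance, had 17.1 for AmMIXTA (24850 to 25177 of NW_015931502.1) and 15.3 for NtZFP8 (24917 to 25176). The leucine-rich repeat receptor-like kinase At1g35710 (LOC107760558) had 12.97 for AmMIXTA and 12.1 for NtZFP8. A nuclear inhibitor of protein phosphatase 1-like (LOC107814041) had 10.7 for AmMIXTA and 10.3 for NtZFP8, and CAMTA 4-like, named above, was the fifth.

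Protein turnover was represented by 2 of 62 genes with the words as first fixed (3.23%), against 51 of 1195 (4.27%). With words added after the values were seen it was 5 of 62 (8.06%), against 58 of 1195 (4.85%), so whether the share lay below or above that of all genes depended on those words. SKIP11-like (LOC107815441), an F-box/kelch protein of the type that selects targets for ubiquitin ligases, had 21.0 for AmMIXTA (27301 to 27587 of NW_015811032.1) and 20.0 for NtZFP8 (27339 to 27599). Aspartic proteinase-like protein 2 (LOC107826537) had 15.4 for AmMIXTA (6818 to 7183 of NW_015844369.1) and 14.65 for NtZFP8 (6912 to 7197). Xylem cysteine proteinase 1-like (LOC107804325), of a type that clears the contents of forming xylem cells, had 17.02 for AmMIXTA and 10.35 for NtZFP8. Ubiquitin-like protein 5 (LOC107827444) and a vacuolar-processing enzyme-like gene (LOC107779843) lay near the threshold, at 10.7 and 10.3 for AmMIXTA and at 12.5 and 10.9 for NtZFP8.

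**Figure D4:**
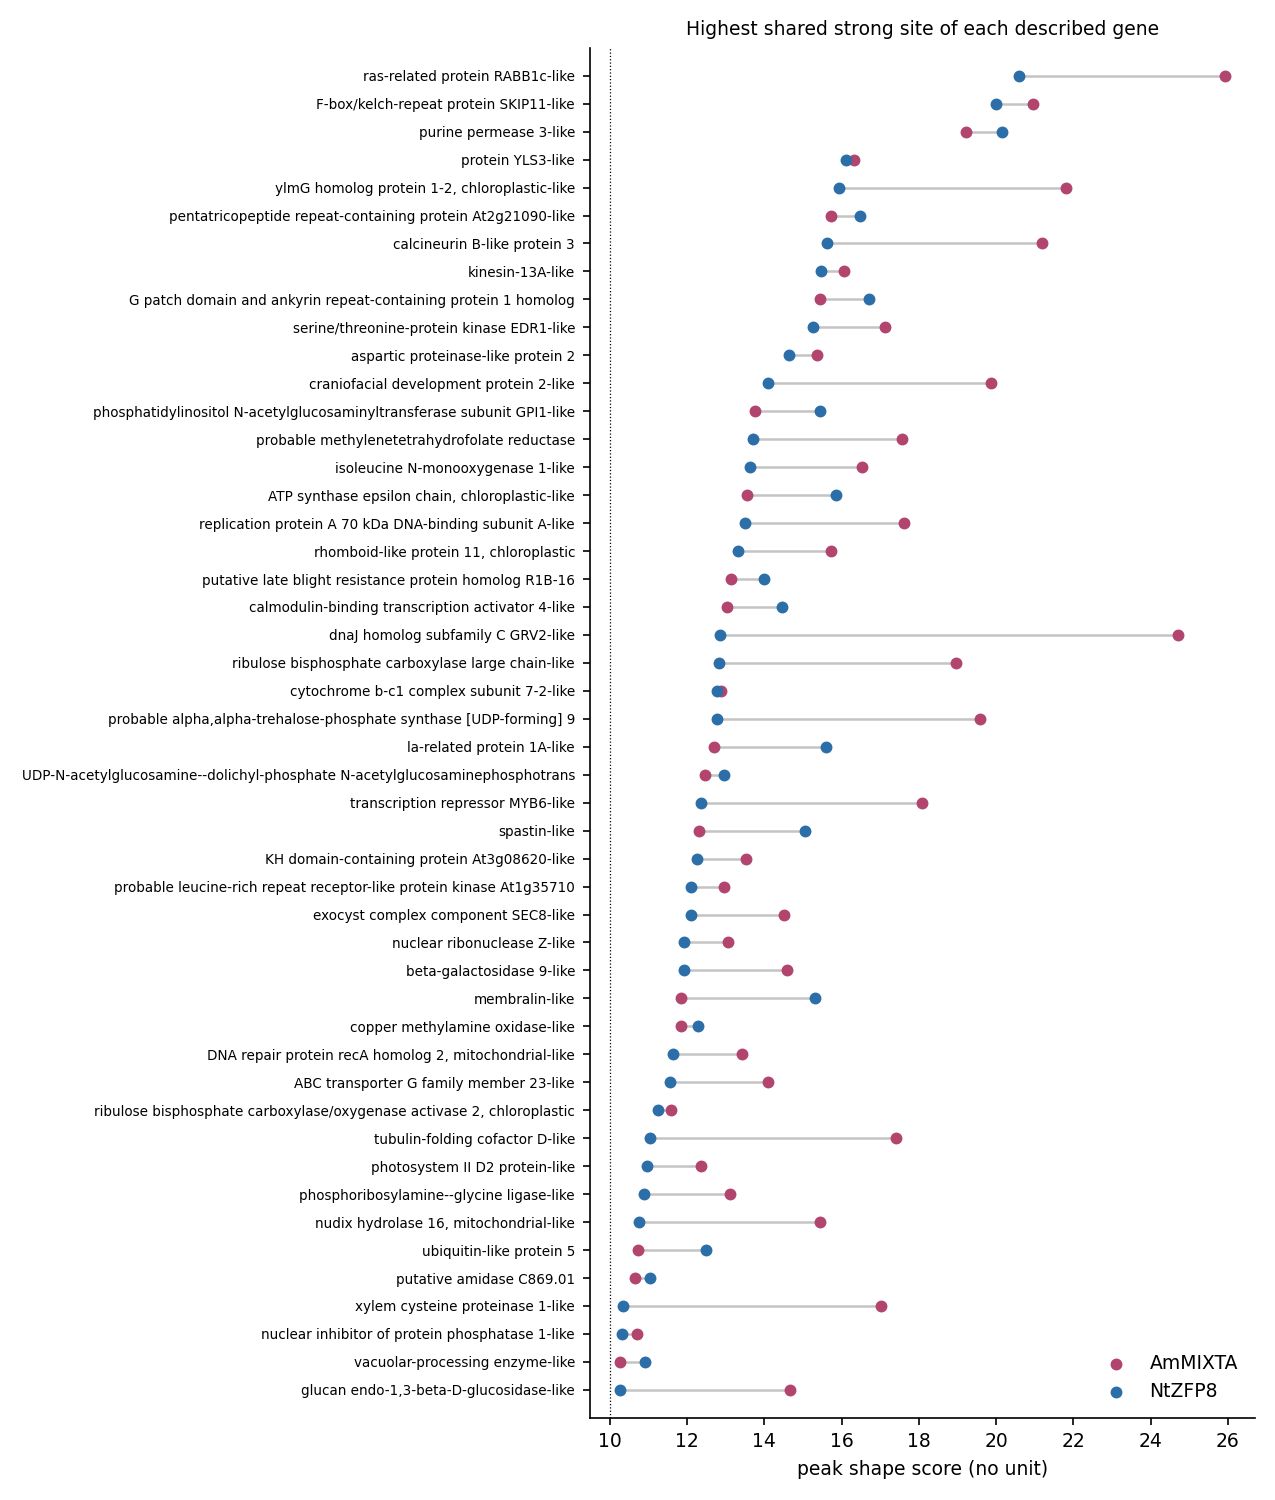
Peak shape score (x axis, no unit) of AmMIXTA (pink) and NtZFP8 (blue) at the highest shared strong site of each described gene, ordered by the lower of the 2 scores. RABB1c-like, SKIP11-like and purine permease 3-like stand at the top with both scores above 19, and GRV2-like shows the widest gap, 24.7 for AmMIXTA and 12.9 for NtZFP8.

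Genes of RNA handling numbered 4 of 62 (6.45%), against 76 of 1195 past 2 in the AmMIXTA table (6.36%), and 2 of the 4 genes with more than 1 site were among them. Ribonuclease Z-like and the KH domain gene were added after their values were seen. With the words as first fixed the group held 2 of 62 genes (3.23%), against 67 of 1195 (5.61%). A pentatricopeptide repeat gene (LOC107814362), of a family that binds organelle RNA, had a first site with 16.6 for AmMIXTA (154074 to 154449 of NW_015808276.1) and 15.4 for NtZFP8 (154169 to 154446). Its second site had 15.7 for AmMIXTA (154739 to 155093) and 16.5 for NtZFP8 (154827 to 155114), and the AmMIXTA centres were 656 bp apart. La-related protein 1A-like, an RNA-binding protein, had 3 sites between 3116 and 5071 of NW_015890401.1. The AmMIXTA scores there were 17.2, 12.7 and 10.05, highest at the first site, while the NtZFP8 scores were 10.23, 15.6 and 14.3, lowest at the first site. Nuclear ribonuclease Z-like (LOC107790503), which trims the ends of transfer RNA precursors, had 13.1 for AmMIXTA and 11.9 for NtZFP8, and the KH domain protein At3g08620-like (LOC107805160) had 13.5 for AmMIXTA and 12.3 for NtZFP8.

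Further genes with more than 1 site were LOC107779393 and LOC107816074. The undescribed LOC107779393 had 3 sites between 8672 and 10308 of NW_015905129.1, with AmMIXTA scores of 14.0, 16.6 and 12.9 and NtZFP8 scores of 14.8, 17.8 and 15.04. The middle site was highest in each list. Cytochrome b-c1 complex subunit 7-2-like (LOC107816074), of the mitochondrial respiratory chain, had 12.9 for AmMIXTA and 12.8 for NtZFP8 at its first site, with centres 1 bp apart. At its second site, 517 bp further along by AmMIXTA centres, it had 12.4 for AmMIXTA and 16.1 for NtZFP8, with the centres 135 bp apart.

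**Figure D5:**
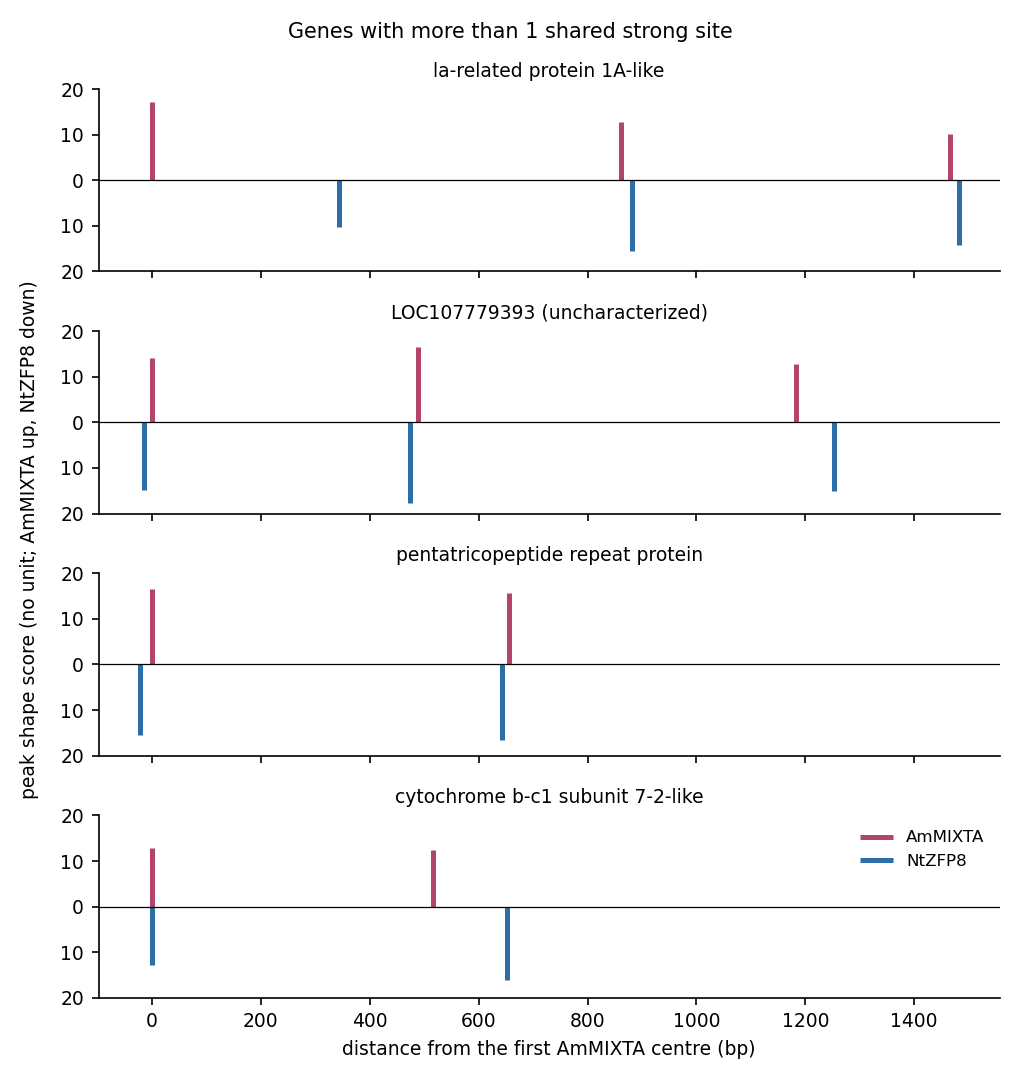
Peak centres by distance from the first AmMIXTA centre of the gene (x axis, bp), with bars showing the score (y axis, no unit) of AmMIXTA upwards and NtZFP8 downwards, at the 4 genes with more than 1 shared strong site. The bars of the proteins stand close together at most sites and are furthest apart at the first site of la-related protein 1A-like (344 bp) and at the second of the cytochrome b-c1 gene (135 bp).

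Genes for plastid and mitochondrial proteins numbered 9 of 62 (14.5%), against 132 of 1195 past 2 in the AmMIXTA table (11.05%). With the words as first fixed they were 8 of 62 (12.9%), against 131 of 1195 (10.96%), without the rubisco large chain-like gene. Protein ylmG homolog 1-2 (LOC107774705), a chloroplast protein, had 21.8 for AmMIXTA (115470 to 115895 of NW_015899794.1) and 15.9 for NtZFP8 (115573 to 115988). Others, listed on nuclear scaffolds, carry names of proteins that plants encode in the plastid genome. A ribulose bisphosphate carboxylase large chain-like gene (LOC107793518) had 19.0 for AmMIXTA and 12.8 for NtZFP8, an ATP synthase epsilon chain-like gene (LOC107816505) had 13.5 and 15.9, and a photosystem II D2-like gene (LOC107808202) had 12.4 and 10.96, with AmMIXTA given first for each. Rhomboid-like protein 11 (LOC107828226) had 15.7 for AmMIXTA and 13.3 for NtZFP8, and rubisco activase 2 (LOC107798594) had 11.6 and 11.2.

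Among transport genes, purine permease 3-like (LOC107788140), of a family that carries purines and cytokinins, had 19.2 for AmMIXTA (24852 to 25337 of NW_015915494.1) and 20.2 for NtZFP8 (25037 to 25333). ABC transporter G family member 23-like (LOC107771139), which carries the mark ABCG in the authors' deposited NtZFP8 gene table, had 14.1 for AmMIXTA and 11.55 for NtZFP8. These were 2 of 62 genes (3.23%), against 43 of 1195 past 2 in the AmMIXTA table. Cell wall words matched 1 of 62 genes as first fixed, against 13 of 1195 (1.09%), and 2 of 62 (3.23%) against 15 of 1195 (1.26%) after a word was added. The genes were a glucan endo-1,3-beta-D-glucosidase-like gene (LOC107793272, 14.7 for AmMIXTA and 10.3 for NtZFP8) and beta-galactosidase 9-like (LOC107766584, 14.6 for AmMIXTA and 11.9 for NtZFP8), the second added after its values were seen. DNA and chromatin words matched 3 of 62 genes as first fixed (4.84%), against 42 of 1195 (3.51%). After changes made on the data the matches were 2 of 62 genes (3.23%), against 38 of 1195 (3.18%), a share near that of all genes. The 2 genes were a large subunit of replication protein A (LOC107807453, 17.6 for AmMIXTA and 13.5 for NtZFP8), of a complex that coats single-stranded DNA, and recA homolog 2 (LOC107784664, 13.4 for AmMIXTA and 11.6 for NtZFP8), of a family of DNA repair proteins.

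Described genes outside these groups included some of the highest sites. YLS3-like (LOC107777080), named for a gene of yellowing leaves, had 16.3 for AmMIXTA (72366 to 72845 of NW_015902504.1) and 16.1 for NtZFP8 (72563 to 72861). LOC107799652, for a protein with G patch and ankyrin domains, had 15.4 for AmMIXTA (32330 to 32806 of NW_015931475.1) and 16.7 for NtZFP8 (32566 to 32854). Isoleucine N-monooxygenase 1-like (LOC107809681) had 16.5 for AmMIXTA and 13.6 for NtZFP8 at the very start of its scaffold, where the AmMIXTA region ran past position 1. The 14 undescribed genes were led by LOC107779393, LOC107803124 (18.6 for AmMIXTA and 16.3 for NtZFP8) and LOC107782682 (20.7 and 16.1).

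A separate list of 618 regions, deposited in the same form in the workbooks of both proteins and carrying no protein label, was set beside the sites. Of its 517 nuclear regions, 87.4% overlapped a listed AmMIXTA peak (84.3 to 90.0) and 94.2% a listed NtZFP8 peak (91.8 to 95.9). It covered 76 of the 560 shared strong sites (13.6%, 10.98 to 16.7), against 14.9% of AmMIXTA peaks above 10 without a strong partner (11.6 to 19.0) and 1.55% of all nuclear AmMIXTA peaks (1.41 to 1.69). The 77 regions on these sites had a median score of 5.22 in that list, against 2.29 for its other nuclear regions. The highest score among its nuclear regions, 10.5, lay on the site on NW_015931517.1 that also came first here. The sites were chosen for high scores, and whether this list is independent of the 2 peak lists was not tested. Its scores at the sites are thus a description.

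This list names nearby genes with a class and a distance, in units it does not state. It placed 35 of the 76 sites in the class Gene, 8 in Promoter, 1 in Early promoter and 2 in AfterGene, and gave no class to 30. For the site on NW_015931517.1 it named LOC107799677 at distance 0, and for that on NW_015836367.1 LOC107824098 at distance 0, genes that the tables of the proteins do not hold. At 12 sites it named a transfer RNA gene. Classes and transfer RNA genes were not counted over the other regions of this list. Whether these counts are particular to the sites was thus not tested. Where the tables and this list both gave a gene, it was the same at 10 sites and another at 1. At 65 of the 76 sites the tables gave no gene. Some of those 65 were in the class Gene, so a site without a gene in the tables is not thereby outside genes. The calcineurin B-like protein 3 site was classed as Promoter at a distance of 1783, EDR1-like as Promoter at 631, and rhomboid-like protein 11 and isoleucine N-monooxygenase 1-like as Gene. RABB1c-like stood at a distance of 1608 on the 3′ side, with no class.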

How the data were processed

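DAP-seq was run on 9 samples in 3 groups. The series' design text names filtering of reads, mapping to the tobacco genome of Sierro and colleagues and, for hits against nlsGFP, a score over 2 with p under 0.05. Aligner, peak caller and the handling of replicates are not stated. Scores are the authors' deposited values, 1 per peak, listed to 2 decimals for NtZFP8. The authors' p-value per peak was not used further.

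Overlaps were computed in pandas 2.3.3 on coordinates as listed. At the sites, 12 AmMIXTA regions and 1 NtZFP8 region began before position 1, and 1 region of each protein wrapped past the scaffold end; all were kept to the part within the scaffold. The overlap step was checked on simulated peaks. Genes were joined by scaffold and exact peak centre, which found each of the 1806 AmMIXTA and 1195 NtZFP8 table peaks. Gene groups are words in descriptions, and the text gives counts after accidental matches were removed and missed members added.

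The sites, word lists and naming rule were chosen with earlier results of these data known. The rule names the 12 highest sites with a described gene, the 5 highest without a gene, the 3 extremes of score difference at each end and of centre distance, the scaffolds with most sites, sites at the threshold, regulators, and up to 3 genes per other group. Genes beyond it were chosen after their values were seen. Sequences, motifs and promoters were not analysed here, since no genome of the build was used.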

Additional observations from a re-analysis of the deposited data

How the results depend on the processing

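The number of shared strong sites (560) depended on the score minimum, with 956 sites at a minimum of 8, 307 at 12 and 112 at 15. It was 898 with partners at any listed score, 897 with partners past 2, and 314 when sites with a further peak of the same protein within 1000 bp were left out, an alternative chosen after seeing the data. It stayed within 1.5 times when 50% of each peak had to overlap (538), centres within 50 bp (481), clipped regions left out (546), the count from the NtZFP8 side (564) and scaffolds reaching 10 kb (422). The median centre distance of 17 bp was 16 bp with 50% overlap, and 63.8 bp when middles of regions replaced the deposited centres (chosen after seeing the data). The share of sites with a further AmMIXTA peak (36.6%) was 6.96% within 500 bp and 52.1% within 5000 bp. Among AmMIXTA peaks above 10 without a strong partner it was 28.1% within 1000 bp, 7.02% within 500 bp and 42.1% within 5000 bp. Joining genes by overlap of regions gave the same 67 sites. With the words as first fixed, and after the changes chosen on the data, the regulators numbered 1 and 2, proteolysis 2 and 5, RNA 2 and 4, the cell wall 1 and 2, and hormones 1 and 0, the last a match of ethylene in methylenetetrahydrofolate reductase; the other groups stayed within 1.5 times.

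No paired analysis was possible because the lists hold no value per replicate, and for the same reason leaving out a replicate was not run. Motifs in promoters were not run. Read depth is unknown.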
